A study of Mus musculus with 96 samples.

Results

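Epidermis of mice whose molecular clock was restored in the brain only was followed through one day, in 24 of the 96 libraries of the series. The 24 were taken by rule as every sample of the deposited table for this genotype: 6 times of day with 4 mice each. All 24 mice were Arntl stopFL/stopFL, carried the transgene Syt10-Cre as tg/wt and were wt/wt for K14Cre, a genotype the submitters abbreviate BRE. In it a removable stop cassette lies in Arntl, the gene of the clock activator BMAL1, and the Syt10 promoter drives Cre recombinase in the brain. No K14 Cre was present, so the cassette was left in place in the epidermis. No control genotype stands in this table, so each comparison is between times of day within it. The mice were male C57BL/6 animals of 8 weeks, fed chow freely, kept at 22 °C under 12 h of light and 12 h of dark. Zeitgeber time 0 (ZT0) is lights on, and the times were ZT0, ZT4, ZT8, ZT12, ZT16 and ZT20. Back skin was treated with dispase, the epidermis was lifted off, and poly(A) RNA from the filtered cell extract was sequenced as stranded libraries. A mouse gave 1 library at 1 time, so mouse 1 at ZT0 and mouse 1 at ZT4 are different animals.

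The circadian clock is a loop of transcription in which BMAL1, paired with CLOCK or NPAS2, switches on the Per, Cry and Nr1d genes, whose proteins then hold BMAL1 and its output back. The central clock in the hypothalamus follows light and sets the daily course of feeding, body temperature and glucocorticoid release, all of which reach the skin. In the epidermis, stem and progenitor cells of the basal layer copy their DNA and divide, and their daughters move up, make keratins and barrier proteins, and are shed. In skin with a working clock the share of cells in S phase is known to change over the day.

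The table holds 22391 genes. Of these, 12028 reached a mean of at least 1 RPKM (reads scaled to transcript length and library depth) and were tested. The other 10363 were not. Among the 12028 are 296 genes that held an unchanging lowest value in all 24 libraries, so no test could call them. By estimate, the libraries held between 12.0 and 19.1 M (mega) reads, the median being 15.9 M reads. Every pair of libraries correlated across genes at r between 0.986 and 0.994. The 8 keratinocyte markers summed to a median of 22221 RPKM, against 0.510 for the 8 endothelial and 0.943 for the 8 adipocyte markers, so the defining markers of the labelled tissue were present. Arntl, the gene that carries the cassette (chr7:113207465-113314126 in mm10, GENCODE M21), ran from 11.4 to 14.6 RPKM over the 24 mice. Reads summed over a gene do not show whether a transcript passes the cassette, so this level does not check the genotype. No label names a batch. The library of ZT16 mouse 2 stood apart from its group for several genes below. Its 24 h values left out are given beside Per1, Glul, Fkbp5, Zbtb16, Cebpd and Txnip. ZT0 mouse 1 also stood apart, with origin licensing and firing genes at a mean of -0.21 log2 from their own averages (others 0.25 to 0.55). Its spinous and granular genes were at 0.28 log2 (others -0.34 to -0.14). Rescaling each library by its median ratio to the others moved library medians by between -0.093 and 0.066 log2, lowest on average at ZT16 (-0.043) and highest at ZT0 (0.027). Counts and calls below are therefore also given on the rescaled libraries where they differ.

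Over the day, 2053 genes (17.1% of those tested) followed a 24 h cosine curve at an adjusted p under 0.05 (limma, Benjamini-Hochberg over all tested genes). Such genes are called rhythmic here. How deep a rhythm was is given as the difference between the curve's peak and trough in log2 RPKM, ± SE, with the time of that peak. Most rhythms were shallow: the median difference was 0.352 log2 among called genes and 0.199 log2 among all tested genes. A difference of at least 1.5-fold was reached by 401 called genes (3.33% of those tested), and 79 of them reached 2-fold. Of the called rhythms of at least 1.5-fold, 54.1% peaked in ZT0 to ZT6 (37.9% on libraries rescaled as above). Fkbp5 and Ablim3 are given here as examples from the early dark, and not as the largest rhythms. Fkbp5, a co-chaperone of the glucocorticoid receptor and a classic target of it, had 2.03 ± 0.43 log2 with its peak at ZT14.4 (adjusted p = 0.0101). Ablim3, an actin-binding LIM protein, rose from 9.47 RPKM at ZT4 to 21.8 RPKM at ZT16 (1.23 ± 0.16 log2, adjusted p = 0.000629).

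By peak time, 56.4% of the rhythmic genes fell in ZT0 to ZT6, 14.1% in ZT6 to ZT12, 10.1% in ZT12 to ZT18 and 19.4% in ZT18 to ZT24. The rescaled libraries gave 1533 rhythmic genes (12.7%), of which 1310 were called in both ways, and an evener spread of 35.4%, 23.8%, 26.5% and 14.3%. As shares of all tested genes the 4 windows held 9.62%, 2.41%, 1.72% and 3.32% as deposited, and 4.51%, 3.03%, 3.38% and 1.82% rescaled. Rhythms of at least 1.5-fold numbered 375 on the rescaled libraries (3.12%). Among the rhythms of that size the corresponding shares for ZT0 to ZT6 were 54.1% and 37.9%. The count of rhythmic genes ran from 1433 without ZT16 mouse 2 to 2761 without ZT0 mouse 1. In each 6 h window of peak time the genes with the smallest adjusted p above a mean of 10 RPKM, predicted genes passed over, were called either way. After lights on the first 3 were Isoc1 (0.45 ± 0.045 log2, adjusted p = 8.57e-05), Wdr6 (0.79 ± 0.089 log2, adjusted p = 0.000194) and Prps2, a phosphoribosyl pyrophosphate synthetase (0.47 ± 0.058 log2, adjusted p = 0.000470). In the ZT6 to ZT12 window they were Rbm3, described below, Rbms1 (0.22 ± 0.026 log2, adjusted p = 0.000229) and Sptssa (0.70 ± 0.094 log2, adjusted p = 0.000630). Sptssa is a small subunit of serine palmitoyltransferase, the first enzyme of ceramide synthesis. Early in the dark they were Mark4, a kinase that regulates microtubules (0.22 ± 0.025 log2, adjusted p = 0.000194), Clu, the secreted chaperone clusterin (0.64 ± 0.083 log2, adjusted p = 0.000602), and Ablim3, followed by the serotonin transporter Slc6a4 (0.98 ± 0.13 log2, adjusted p = 0.000630). Late in the dark they were Ecm1, extracellular matrix protein 1 (0.71 ± 0.092 log2, adjusted p = 0.000602), Acp5, an acid phosphatase (0.49 ± 0.067 log2, adjusted p = 0.000640), and Lrpprc, which stabilises mitochondrial messages (0.27 ± 0.039 log2, adjusted p = 0.00104), followed by Col23a1, a membrane collagen (0.83 ± 0.13 log2, adjusted p = 0.00131).

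**Figure D1:**
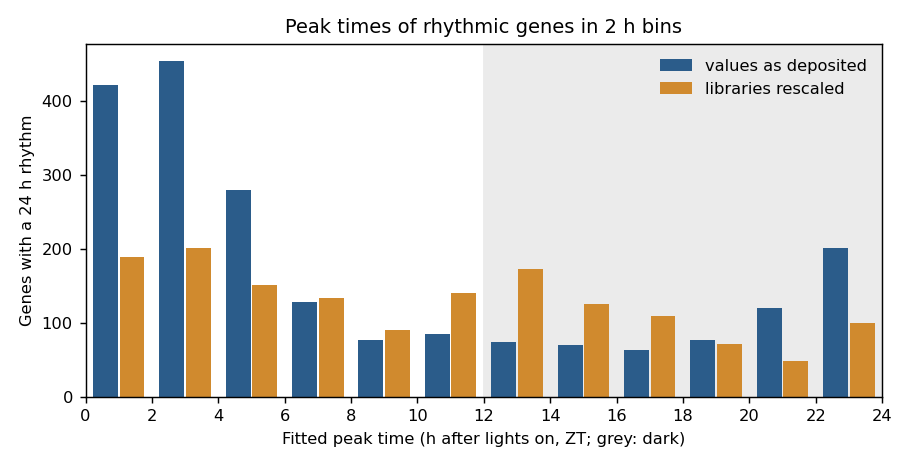
Number of rhythmic genes (vertical axis) by fitted peak time in hours after lights on (horizontal axis), for the deposited values and for the rescaled libraries. The deposited values pile up between ZT0 and ZT6 (56.4% of called genes), and the rescaled ones are spread more evenly (35.4%).

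Consecutive times were compared to see when in the day genes changed. These steps share mice, since each time enters 2 of them, so their counts are given side by side only. From ZT0 to ZT4 and from ZT4 to ZT8 limma called 0 genes in either direction, with 990 and 1520 genes at an unadjusted p under 0.05 and smallest adjusted p of 0.320 and 0.123. The rescaled libraries also gave 0 in both steps, and no single left-out library gave more than 1 rise and 3 falls from ZT4 to ZT8. From ZT8 to ZT12, 2 genes rose (0.0166%) and 0 fell, with 1318 genes at an unadjusted p under 0.05. From ZT12 to ZT16, 92 rose and 140 fell (0.765% and 1.16%), and on the rescaled libraries 92 and 162. From ZT16 to ZT20, 504 rose and 127 fell (4.19% and 1.06%), so that 79.9% of the calls were rises. Rescaled, that step had 268 rises and 205 falls, or 56.7% rises. From ZT20 to ZT0, 69 rose and 22 fell (0.574% and 0.183%), rescaled 45 and 22.

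These step counts leaned on single libraries. Without ZT16 mouse 3 the step into ZT16 had 15 rises and 40 falls, and without ZT12 mouse 2 it had 270 falls. Without ZT16 mouse 2 the step out of it had 159 rises and 33 falls, and the rises were 254 and 317 without ZT16 mice 3 and 4. They were 219, 246, 249 and 217 without ZT20 mice 1, 2, 3 and 4. The step from ZT20 to ZT0 fell to 23 rises without ZT20 mouse 4 and to 3 falls without ZT0 mouse 2, and it had 51 falls without ZT8 mouse 1. From ZT8 to ZT12, rises and falls were 12 each without ZT16 mouse 2, and the rises fell to 0 without ZT8 mouse 2.

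**Figure D2:**
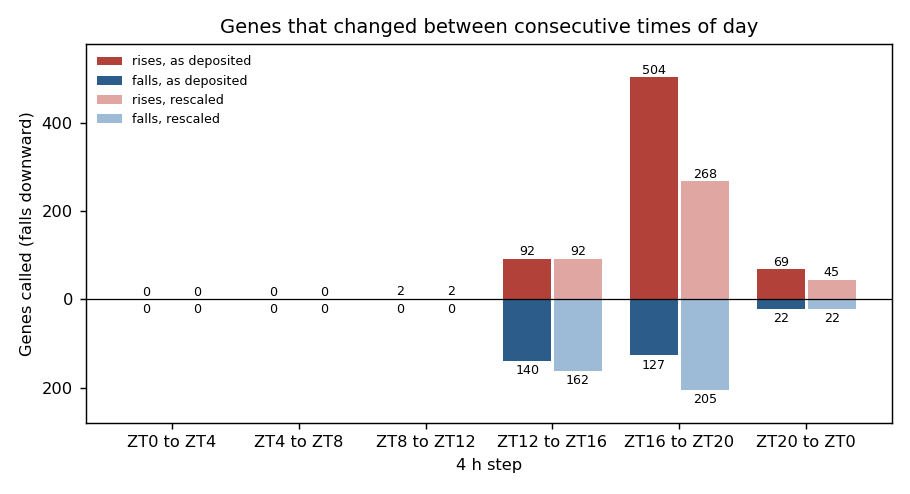
Number of genes that rose (up) or fell (down) in each 4 h step, for the deposited values and for the rescaled libraries, at an adjusted p under 0.05. Calls gather in the steps into and out of ZT16, and the 2 steps from ZT0 to ZT8 have 0.

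Of the clock's own genes, 17 of 19 in the table were tested; Ciart and Bhlhe41 stayed under 1 RPKM. Just 2 were rhythmic, Arntl and Npas2 (11.8% of those tested, against 17.1% of all tested genes), and 1 on the rescaled libraries, Npas2. The median peak-to-trough difference of the 17 was 0.18 log2. Arntl had 13.2, 14.4, 14.6 and 12.6 RPKM at ZT0 and 11.9, 11.4, 12.1 and 12.6 RPKM at ZT8. The ranges of the 2 times overlapped slightly, since the highest ZT8 mouse and the lowest ZT0 mouse were both near 12.6 RPKM. The fitted difference was 0.18 ± 0.047 log2 with a peak at ZT21.9 (adjusted p = 0.0333). Npas2 (chr1:39193731-39363236), a partner of BMAL1, had 13.2, 13.4, 14.5 and 15.03 RPKM at ZT8 and 17.3, 20.6, 19.5 and 21.1 RPKM at ZT16. All 4 mice at ZT16 lay above all 4 at ZT8, a difference of 0.34 ± 0.088 log2 at the fitted extremes (peak ZT18.7, adjusted p = 0.0290). Npas2 was not called when 1 of these was left out: ZT8 mice 1 and 2 and ZT16 mouse 2 (adjusted p up to 0.0583). Arntl was not called when 1 of these was left out: ZT0 mice 2 and 3, ZT8 mouse 2 and ZT12 mice 1 and 2 (adjusted p up to 0.0651). Arntl no longer passed on the rescaled libraries (adjusted p = 0.137). The core clock count fell to 0 without ZT8 mouse 2.

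The Per genes, whose proteins inhibit BMAL1, did not pass the 24 h test. Per1 had 23.8, 19.3, 18.1 and 17.4 RPKM at ZT8, 56.8, 42.2, 35.3 and 50.2 RPKM at ZT12 and 17.3, 43.2, 14.3 and 18.5 RPKM at ZT16, and is shown per mouse because of these values. All 4 mice at ZT12 were above all 4 at ZT8, and at ZT16 mouse 2 alone reached the ZT12 range. The 24 h difference was 0.80 ± 0.36 log2 (adjusted p = 0.247), or 0.72 ± 0.39 log2 without that mouse (adjusted p = 0.370), and the step from ZT8 to ZT12 1.22 ± 0.36 log2 (adjusted p = 0.250). Per2 ran from 3.23, 3.19, 2.99 and 4.41 RPKM at ZT4 to 8.28, 6.28, 9.82 and 4.26 RPKM at ZT12, where mouse 4 overlapped the ZT4 mice (0.48 ± 0.31 log2, adjusted p = 0.475). Nr1d1 and Dbp are direct targets of BMAL1. Nr1d1, the repressor REV-ERB alpha, had 3.98, 4.18, 4.16 and 4.22 RPKM at ZT8 and 5.07, 4.81, 3.78 and 5.01 RPKM at ZT20, with overlapping mice (0.15 ± 0.11 log2, adjusted p = 0.573). Dbp, an activator of clock output genes, had 4.32, 2.88, 3.98 and 3.91 RPKM at ZT12 and 4.44, 4.92, 4.47 and 5.69 RPKM at ZT20, which did not overlap (0.16 ± 0.15 log2, adjusted p = 0.725). Cry1, a repressor, differed by 0.13 ± 0.071 log2 (adjusted p = 0.356), and Clock by 0.046 ± 0.067 log2 (adjusted p = 0.873).

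The promoters of Per1 and Cry1 show the element through which BMAL1 acts. They are the 250 bases before the RefSeq start in GRCm38.p6 (Per1 chr11:69098699-69098948, plus strand; Cry1 chr10:85185055-85185304, minus strand), 5′ to 3′ on the gene's strand, with the E-box CACGTG in capitals:
Per1: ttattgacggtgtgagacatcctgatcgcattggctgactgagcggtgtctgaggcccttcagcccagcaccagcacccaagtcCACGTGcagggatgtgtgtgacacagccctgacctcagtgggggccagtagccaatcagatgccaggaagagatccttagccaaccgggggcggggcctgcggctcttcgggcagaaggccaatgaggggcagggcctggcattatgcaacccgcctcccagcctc
Cry1: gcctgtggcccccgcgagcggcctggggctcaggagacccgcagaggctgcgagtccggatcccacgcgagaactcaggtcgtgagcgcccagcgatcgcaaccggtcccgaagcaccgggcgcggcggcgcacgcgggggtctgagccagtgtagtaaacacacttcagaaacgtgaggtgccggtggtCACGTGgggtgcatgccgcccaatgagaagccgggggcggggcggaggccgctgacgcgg
Searched on both strands, this motif occurs in a window of 5 of the 16 clock genes matched, against 10.2% of matched tested genes and 6.86% of all matched genes. Of all 32851 promoter windows of this length 6.02% hold it. Neither gene passed the 24 h test. A match is a description of letters and does not show binding, and a window with no match says nothing of the factor.

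**Figure D3:**
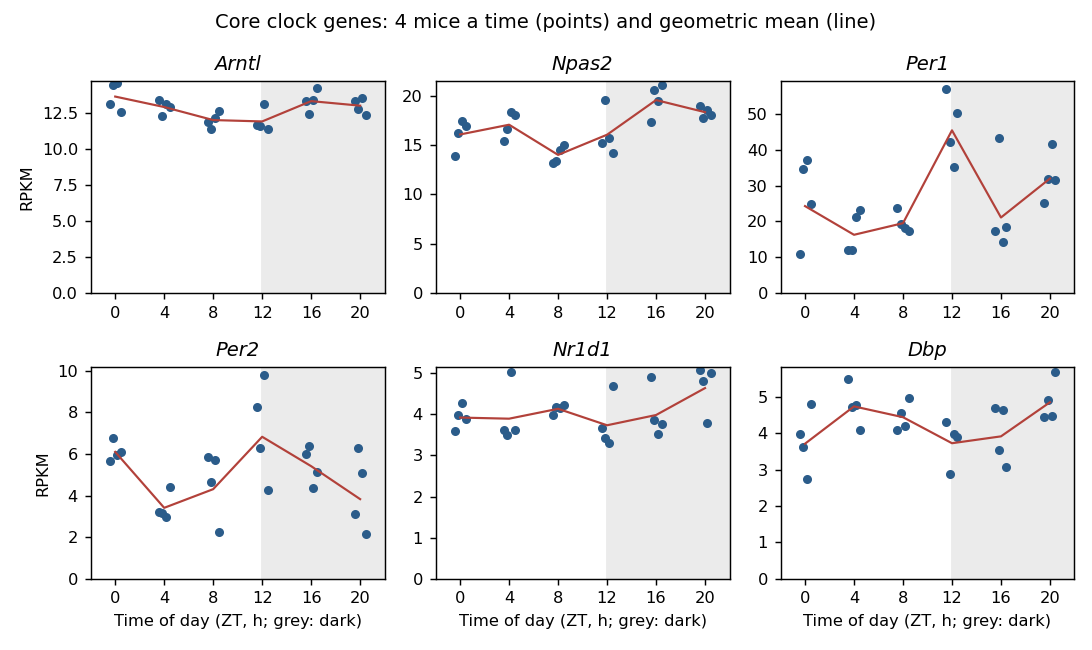
RPKM of Arntl, Npas2, Per1, Per2, Nr1d1 and Dbp (vertical axes) in each of the 24 mice by time of day (horizontal axis, hours after lights on), with the group means. Npas2 is higher at ZT16 than at ZT8 in every mouse, Per1 is high at ZT12 and in ZT16 mouse 2, and the ZT8 and ZT20 mice overlap for Nr1d1.

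Genes of DNA replication peaked around lights on. 12 of 18 tested genes of origin licensing and firing passed (11 rescaled), 66.7% against 17.1% of all tested genes, with peaks from ZT0.056 to ZT1.89. At the fork and in chromatin assembly 25 of 29 passed (23 rescaled; 86.2%), and 14 of 22 in nucleotide and folate synthesis (11 rescaled; 63.6%). Median differences were 0.75, 0.54 and 0.45 log2, against 0.199 log2 over all tested genes. In bulk epidermis, fewer cells of a type and less RNA per cell cannot be told apart. Mcm6, a subunit of the helicase that opens origins (chr1:128331590-128359664), had 11.2, 18.4, 19.04 and 20.96 RPKM at ZT0 and 11.7, 7.84, 10.7 and 12.3 RPKM at ZT12. ZT0 mouse 1 lay within the ZT12 range and the other 3 above it (0.78 ± 0.15 log2, peak ZT0.59, adjusted p = 0.00612). Mcm5 had 0.92 ± 0.18 log2 (peak ZT1.10, adjusted p = 0.00682) and Mcm4 0.72 ± 0.15 log2 (peak ZT0.056, adjusted p = 0.0112). No member of these lists, apart from Cad and Mthfd1l, passed the test of a single 4 h step. Both rose from ZT16 to ZT20, Cad by 0.53 ± 0.15 log2 (adjusted p = 0.0453) and Mthfd1l by 0.90 ± 0.19 log2 (adjusted p = 0.0102). The licensing count fell to 7 without ZT12 mouse 2. The nucleotide count fell to 9 without ZT0 mouse 3.

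The Mcm5, Mcm6 and Mcm7 promoters are printed because they hold the E2F element through which S phase genes are commonly switched on. They are the 250 bases before the RefSeq start in GRCm38.p6 (Mcm5 chr8:75109259-75109508, plus strand; Mcm6 chr1:128359706-128359955, minus strand; Mcm7 chr5:138171884-138172133, minus strand), 5′ to 3′ on the gene's strand. Capitals mark TTTCCCGC or TTTGGCGC, or their reverse complements:
Mcm5: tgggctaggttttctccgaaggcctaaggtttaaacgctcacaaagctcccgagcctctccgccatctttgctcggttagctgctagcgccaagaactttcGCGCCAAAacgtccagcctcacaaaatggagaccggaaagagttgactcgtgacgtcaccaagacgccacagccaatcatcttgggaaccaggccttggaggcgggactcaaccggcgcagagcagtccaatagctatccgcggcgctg
Mcm6: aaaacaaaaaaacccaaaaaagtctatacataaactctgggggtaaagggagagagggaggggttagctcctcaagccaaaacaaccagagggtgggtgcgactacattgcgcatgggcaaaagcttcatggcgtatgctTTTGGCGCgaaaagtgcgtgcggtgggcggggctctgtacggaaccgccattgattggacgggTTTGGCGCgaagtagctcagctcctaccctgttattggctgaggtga
Mcm7: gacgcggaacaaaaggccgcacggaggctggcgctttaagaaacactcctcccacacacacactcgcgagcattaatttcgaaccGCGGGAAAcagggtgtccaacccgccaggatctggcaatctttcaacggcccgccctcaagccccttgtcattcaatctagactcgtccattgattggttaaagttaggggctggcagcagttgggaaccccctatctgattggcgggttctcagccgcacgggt
Either motif, on either strand, was found for 5 of the 16 licensing genes matched, against 2.93% of matched tested genes and 1.51% of all matched genes. Among matched rhythmic genes the share was 4.07%. Other cell cycle lists differed: 1 of 24 genes of the fork and chromatin assembly and 1 of 21 of nucleotide and folate synthesis held a match. The genes that control entry into S phase had 4 of 15, and those of G2 and mitosis 0 of 28. By window the shares were 1.3% of all 32851 and 2.44% of those of tested genes. Mcm6 holds 2 matches and the others 1 each. Mcm7, named here for its promoter, had a difference of 0.63 ± 0.14 log2 with its peak at ZT1.18 (adjusted p = 0.0142). These are matches of letters only and no binding was measured.

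At the fork, Dscc1, which helps load the sliding clamp, had 3.18, 2.09, 2.17 and 2.39 RPKM at ZT4 and 1.19, 0.635, 0.752 and 0.762 RPKM at ZT16, with no overlap (1.37 ± 0.21 log2, peak ZT2.72, adjusted p = 0.00122). The single-strand binding protein Rpa1 had 0.42 ± 0.069 log2 (adjusted p = 0.00209), the polymerase subunit Pola1 0.65 ± 0.12 log2 (adjusted p = 0.00442) and Uhrf1, which guides maintenance DNA methylation, 1.15 ± 0.23 log2 (adjusted p = 0.00683). In the nucleotide list, thymidine kinase Tk1 had 25.1, 18.1, 18.6 and 20.2 RPKM at ZT4 and 14.3, 8.66, 9.62 and 9.96 RPKM at ZT16, again without overlap (0.89 ± 0.14 log2, adjusted p = 0.00131). Of the genes that control entry into S phase, 9 of 20 passed (45.0% against 17.1% of all tested genes, and 6 rescaled). Among them were Cdk2 (0.38 ± 0.085 log2, peak ZT1.43, adjusted p = 0.0151) and Rbl1, the pocket protein p107 (0.56 ± 0.11 log2, peak ZT1.64, adjusted p = 0.00696). The growth-factor dependent cyclin Ccnd1 peaked earlier, at ZT19.6 (0.52 ± 0.13 log2, adjusted p = 0.0212). In DNA repair 10 of 32 passed (6 rescaled; 31.2%), among them Parp1, which senses strand breaks (0.32 ± 0.074 log2, peak ZT0.70, adjusted p = 0.0180). The entry count fell to 5 without ZT0 mouse 4. The repair count fell to 5 without ZT4 mouse 1. Parp1 no longer passed on the rescaled libraries (adjusted p = 0.0684).

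Of markers of T cells, which live in mouse epidermis and can divide, 3 of 8 tested were rhythmic (1 rescaled; 37.5% against 17.1% of all tested genes): the leukocyte phosphatase Ptprc (1.15 ± 0.27 log2, peak ZT23.3, adjusted p = 0.0185), the T cell receptor partner Cd3d (0.76 ± 0.20 log2, peak ZT23.3, adjusted p = 0.0333) and the interleukin receptor chain Il2rb (1.16 ± 0.32 log2, peak ZT0.037, adjusted p = 0.0414). The summed level of the 12 markers in the table averaged 94.9, 91.04, 69.4, 75.5, 68.5 and 91.6 RPKM from ZT0 to ZT20, and ran between 51.4 and 106.1 RPKM in single mice. Thy1, also a fibroblast marker, made up 52.2 RPKM of a median of 81.6. Their part in the replication rhythms was not tested. Cd3d was not called when 1 of these was left out: ZT0 mice 2 and 3, ZT8 mouse 2 and ZT12 mice 2 and 3 (adjusted p up to 0.0683). Il2rb lost its call without any 1 of 12 libraries (adjusted p up to 0.0863, without ZT0 mouse 2). Cd3d and Il2rb no longer passed on the rescaled libraries (adjusted p = 0.0509 and 0.0609). The T cell marker count fell to 1 without ZT0 mouse 2 and rose to 7 without ZT4 mouse 2.

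Of 33 tested genes of G2 and mitosis, 3 passed (2 rescaled; 9.09% against 17.1% of all tested genes), although their median difference, 0.59 log2, exceeded the 0.199 log2 of all tested genes. From ZT0 to ZT4 all 33 had a higher mean, by a median of 0.62 log2 against 0 log2 over all tested genes, and 0 passed the test of that step. Their mean deviation from each gene's average was -0.11, 0.52, 0.064, -0.14, -0.10 and -0.24 log2 from ZT0 to ZT20. At ZT0 it ran from -0.33 to 0.47 log2 over the 4 mice and at ZT4 from 0.22 to 0.86. The 3 that passed were the checkpoint kinase Ttk (0.59 ± 0.13 log2, peak ZT7.44, adjusted p = 0.0159), Mad2l1 (0.71 ± 0.18 log2, peak ZT3.45, adjusted p = 0.0271) and Bub1 (0.82 ± 0.24 log2, peak ZT4.25, adjusted p = 0.0475). Ttk was listed in ZT8 mice at 13.1, 19.1, 14.5 and 18.1 RPKM and in ZT20 mice at 8.61, 9.72, 10.98 and 12.7 RPKM, which did not overlap. Mad2l1 was not called when 1 of these was left out: ZT4 mouse 1 and ZT16 mouse 2 (adjusted p up to 0.0610). Bub1 lost its call without any 1 of 16 libraries (adjusted p up to 0.109, without ZT4 mouse 1). Bub1 no longer passed on the rescaled libraries (adjusted p = 0.0600). The mitosis count fell to 1 without ZT4 mouse 1 and rose to 9 without ZT16 mouse 1.

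4 copies of H2A histone genes were named for the size of their rhythms. Hist1h2ag, an H2A gene expressed in S phase, had 66.1, 47.3, 33.7 and 42.1 RPKM at ZT4 and 12.5, 11.7, 12.1 and 18.5 RPKM at ZT16. Every ZT4 mouse was above every ZT16 mouse (1.26 ± 0.34 log2, peak ZT5.92, adjusted p = 0.0388). Hist1h2ao followed with 30.7, 23.7, 16.8 and 20.2 RPKM at ZT4 and 5.79, 5.19, 5.45 and 8.36 at ZT16 (1.34 ± 0.36 log2, adjusted p = 0.0364), and Hist1h2ac and Hist1h2an had adjusted p = 0.0438 and 0.0355. These genes are near-identical copies whose reads can be shared, and their messages mostly lack poly(A) tails, so each of these values is uncertain. Hist1h2ag lost its call without any 1 of 11 libraries (adjusted p up to 0.0766, without ZT4 mouse 1). Hist1h2ao lost its call without any 1 of 9 libraries (adjusted p up to 0.0719, without ZT4 mouse 1). Hist1h2ac lost its call without any 1 of 15 libraries (adjusted p up to 0.0878, without ZT4 mouse 1). Hist1h2an lost its call without any 1 of 8 libraries (adjusted p up to 0.0710, without ZT4 mouse 1).

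In the differentiating layers, 11 of 32 tested genes of spinous and granular cells were rhythmic (12 rescaled; 34.4% against 17.1% of all tested genes), with a median difference of 0.58 log2 over the list. Of the 11, 4 peaked in ZT6 to ZT12, 6 in ZT12 to ZT18 and 0 in ZT18 to ZT24, while Sprr2a3 alone peaked in ZT0 to ZT6. Asprv1, a protease that cuts filaggrin, had 0.85 ± 0.19 log2 (peak ZT12.1, adjusted p = 0.0153). Hornerin, Hrnr, a filaggrin-like protein of the cornified layer, had 27.3, 16.4, 14.9 and 16.4 RPKM at ZT0 and 43.8, 52.4, 53.9 and 32.1 RPKM at ZT12. All 4 ZT12 mice were above all 4 ZT0 mice, and the ZT16 mice lay wide apart at 25.7, 78.7, 114 and 24.8 RPKM (1.33 ± 0.33 log2, peak ZT13.2, adjusted p = 0.0243). Sprr2a3, a cornified envelope precursor with near-identical neighbours, had 21.8, 27.2, 13.9 and 39.2 RPKM at ZT4 and 7.29, 4.71, 4.34 and 8.68 RPKM at ZT16, with no overlap. Krt10, the main suprabasal keratin, ran from 6309 RPKM at ZT0 to 8696 RPKM at ZT12 (0.53 ± 0.14 log2, adjusted p = 0.0383). Hrnr was not called without ZT0 mouse 3 (adjusted p = 0.0515). Krt10 lost its call without any 1 of 9 libraries (adjusted p up to 0.0796, without ZT0 mouse 3). The spinous and granular count fell to 4 without ZT0 mouse 3.

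Called genes of barrier lipid synthesis peaked between the middle of the light and the first hours of the dark. 6 of 26 tested genes of barrier lipid synthesis passed (8 rescaled; 23.1% against 17.1% of all tested genes), all 6 with peaks from ZT7.69 to ZT13.5. Aloxe3, a lipoxygenase that acts on acylceramides, had 8.20, 4.11, 4.14 and 4.54 RPKM at ZT0 and 8.50, 11.4, 9.65 and 8.77 RPKM at ZT12. The ZT12 mice were all higher, by a narrow margin over ZT0 mouse 1. The alkaline ceramidase Acer1 had 0.46 ± 0.12 log2 (peak ZT7.69, adjusted p = 0.0274) and the retinol dehydrogenase relative Sdr9c7 1.03 ± 0.25 log2 (peak ZT11.4, adjusted p = 0.0243). Of proteases and inhibitors of desquamation, 7 of 23 passed (10 rescaled; 30.4%). They included kallikrein Klk5 (0.76 ± 0.20 log2, peak ZT11.8, adjusted p = 0.0296) and the lysosomal proteases Ctsd (0.19 ± 0.043 log2, peak ZT15.6, adjusted p = 0.0128) and Ctsl (0.49 ± 0.11 log2, peak ZT17.2, adjusted p = 0.0166). Ctsl also passed both steps around ZT16, rising by 0.55 ± 0.11 log2 into it and falling by 0.40 ± 0.11 log2 out of it (adjusted p = 0.0123 and 0.0397). Acer1 was not called when 1 of these was left out: ZT8 mice 2 and 4 (adjusted p up to 0.0612). Sdr9c7 was not called without ZT0 mouse 3 (adjusted p = 0.0565). Klk5 was not called when 1 of these was left out: ZT0 mice 2, 3 and 4 and ZT12 mouse 3 (adjusted p up to 0.0624). The barrier lipid count fell to 2 without ZT0 mouse 3 and rose to 11 without ZT0 mouse 1. The desquamation count fell to 3 without ZT0 mouse 2.

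Of the basal keratinocyte list, 7 of 17 tested genes passed (5 rescaled; 41.2% against 17.1% of all tested genes). Of the 7, 6 had fitted peaks between ZT15.8 and ZT21.02, and Sox6, named after its values were seen, peaked at ZT1.11. Itga3, an integrin subunit that binds laminin, had 53.03, 43.8, 59.4 and 43.1 RPKM at ZT8 and 73.3, 72.3, 66.02 and 68.9 RPKM at ZT16, without overlap (0.46 ± 0.10 log2, peak ZT17.8, adjusted p = 0.0133). Itga6, an integrin subunit of the hemidesmosome, had 0.44 ± 0.097 log2 (peak ZT19.7, adjusted p = 0.0135), and the hemidesmosome collagen Col17a1 0.33 ± 0.085 log2 (peak ZT21.02, adjusted p = 0.0312). Of desmosome genes 2 of 15 passed, Pkp3 (0.16 ± 0.039 log2, adjusted p = 0.0251) and Perp (0.27 ± 0.072 log2, adjusted p = 0.0339) (13.3%, against 17.1% of all tested genes). Col17a1 was not called when 1 of these was left out: ZT0 mouse 3, ZT8 mice 1 and 2 and ZT20 mice 1 and 4 (adjusted p up to 0.0612). Pkp3 was not called without ZT16 mouse 2 (adjusted p = 0.0551). Perp lost its call without any 1 of 8 libraries (adjusted p up to 0.0667, without ZT0 mouse 3). Col17a1 and Pkp3 no longer passed on the rescaled libraries (adjusted p = 0.0609 and 0.0515). The basal count fell to 4 without ZT8 mouse 1 and rose to 12 without ZT0 mouse 1. The desmosome count fell to 1 without ZT0 mouse 2 and rose to 5 without ZT12 mouse 4.

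Genes induced by glucocorticoids, which in mice surge before lights off, had their highest mean level at ZT12. Of 20 tested on this list, 6 passed the 24 h test, 30.0% against 17.1% of all tested genes (7 rescaled). Of the 6, 5 peaked in ZT12 to ZT18, and 1, the receptor gene Nr3c1, peaked at ZT1.06. At ZT12, 18 of the 20 had a higher mean than at ZT8, by a median of 0.49 log2 against -0.045 log2 over all tested genes. Glul, glutamine synthetase (chr1:153899944-153909723), had 40.4, 28.1, 42.3 and 37.8 RPKM at ZT8, 104, 92.3, 63.1 and 107 RPKM at ZT12 and 49.8, 85.2, 48.3 and 52.1 RPKM at ZT16. Every ZT12 mouse was above every ZT8 mouse, and at ZT16 mouse 2 stayed in the ZT12 range while the other 3 lay between 48.3 and 52.1 RPKM. The rise from ZT8 to ZT12 was 1.29 ± 0.19 log2 (adjusted p = 0.0210) and the 24 h difference 1.41 ± 0.20 log2 (peak ZT14.1, adjusted p = 0.000820). The step call was lost when any 1 of 5 libraries was left out (ZT8 mice 2 and 4 and ZT12 mice 1, 2 and 4), with adjusted p up to 0.157. Without ZT16 mouse 2 the 24 h call of Glul held, at adjusted p = 0.00204.

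Fkbp5 (chr17:28399094-28517527), shown per mouse for its values, had 2.61, 2.97, 3.61 and 2.19 RPKM at ZT8, 10.8, 10.1, 12.9 and 7.75 RPKM at ZT12 and 3.56, 24.4, 3.52 and 3.41 RPKM at ZT16. All 4 ZT12 mice were above all 4 ZT8 mice, and the ZT16 group held 1 mouse far above the other 3. Without that mouse the 24 h difference was 1.74 ± 0.38 log2 and still passed (adjusted p = 0.0192). Zbtb16, a zinc finger repressor induced by glucocorticoids, had 23.4, 15.01, 27.1 and 16.1 RPKM at ZT8, 31.4, 39.7, 57.3 and 32.9 at ZT12 and 14.1, 82.6, 20.03 and 21.7 at ZT16, again with mouse 2 high. Its call (adjusted p = 0.0459) and that of the transcription factor Cebpd (adjusted p = 0.0441) were lost without that mouse (adjusted p = 0.0941 and 0.0752). They were lost without any 1 of 18 and 15 of the 24 libraries, respectively. The receptor gene itself, Nr3c1, had 0.21 ± 0.046 log2 and peaked at ZT1.06 (adjusted p = 0.0122). Nr3c1 no longer passed on the rescaled libraries (adjusted p = 0.105). The consensus glucocorticoid response element, searched on both strands of the same 250 base windows, occurred for 1 of the 21 listed genes matched, Sgk1 (named for that match), and in 3 of all 32851 windows. The list's count fell to 3 without ZT0 mouse 3 and also without ZT16 mouse 2.

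Other genes around lights off were not on that list. Tppp3, a tubulin-binding protein shown for its values, had 57.3, 41.9, 63.5 and 38.02 RPKM at ZT8, 127, 85.5, 129 and 133 RPKM at ZT12 and 184, 255, 133 and 154 RPKM at ZT16. No ZT12 mouse fell within the ZT8 range. It was, with Glul, 1 of the 2 genes that rose from ZT8 to ZT12, by 1.25 ± 0.19 log2 (adjusted p = 0.0210), and it fell from ZT16 to ZT20 by 1.01 ± 0.19 log2 (adjusted p = 0.00708). The ZT8 to ZT12 call was lost when any 1 of 4 libraries was left out (ZT8 mice 2 and 4 and ZT12 mice 1 and 4), with adjusted p up to 0.157. Il22ra2, a soluble decoy receptor for the cytokine IL-22, rose to 45.4 RPKM at ZT16 from 16.3 RPKM at ZT8 (1.19 ± 0.22 log2, adjusted p = 0.00474). Adh1, an alcohol and retinol dehydrogenase, peaked at ZT12.7 (1.18 ± 0.23 log2, adjusted p = 0.00661). Txnip, an inhibitor of glucose uptake that responds to sugar and is shown for its values, fell from 330.0, 205, 203 and 522 RPKM at ZT12 to 79.2, 212, 89.9 and 73.3 RPKM at ZT16, where mouse 2 lay within the ZT12 range. The drop was 1.504 ± 0.36 log2 (adjusted p = 0.0385). Without that mouse it passed as well (adjusted p = 0.0214), while the 24 h difference did not pass with or without it (adjusted p = 0.0761 with it; without it 1.12 ± 0.39 log2, adjusted p = 0.117). The step call was lost when any 1 of 6 libraries was left out (ZT12 mice 1 and 4, ZT16 mice 1, 3 and 4 and ZT20 mouse 3), with adjusted p up to 0.121.

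**Figure D4:**
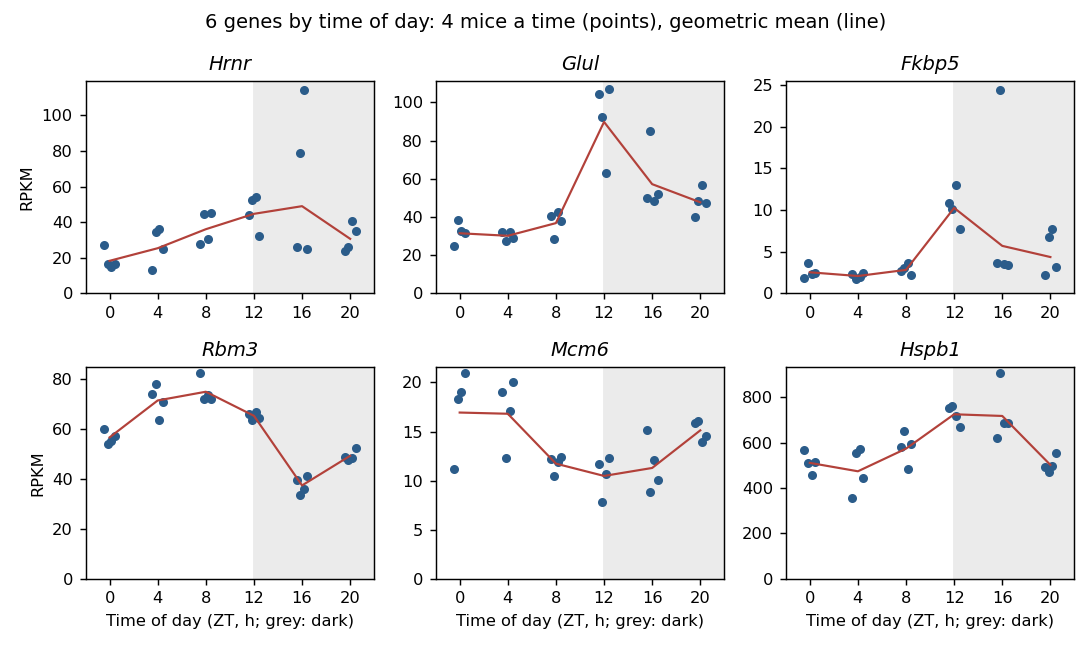
RPKM of Hrnr, Glul, Fkbp5, Rbm3, Mcm6 and Hspb1 (vertical axes) in each of the 24 mice by time of day (horizontal axis, hours after lights on), with the group means. ZT16 mouse 2 is the high point for Glul, Fkbp5 and Hspb1 at that time, and all ZT16 mice lie below all ZT12 mice for Rbm3.

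From ZT12 to ZT16, 2 of 3 tested genes of RNA-binding proteins induced by mild cold fell and 3 of 24 of the heat shock list rose, in a step where 1.16% and 0.765% of all tested genes did so. Rbm3 (chrX:8138975-8145880), a glycine-rich RNA-binding protein that rises when cells are cooled, had 82.4, 72.05, 73.4 and 71.9 RPKM at ZT8, 66.1, 63.6, 66.7 and 64.5 at ZT12, 39.5, 33.4, 35.97 and 40.95 at ZT16 and 48.6, 47.6, 48.3 and 52.5 at ZT20. All 4 mice at ZT16 were below every mouse at any other time. The fall from ZT12 to ZT16 was 0.80 ± 0.065 log2 (adjusted p = 1.71e-06), the smallest adjusted p of any gene in that step. From ZT16 to ZT20 it rose by 0.40 ± 0.065 log2 (adjusted p = 0.00231), and its 24 h difference was 0.89 ± 0.098 log2 (peak ZT6.12, adjusted p = 0.000194). Cirbp (chr10:80165985-80172786), its close relative, had 39.6, 46.5, 48.2 and 56.6 RPKM at ZT12, 24.4, 24.2, 29.3 and 29.6 at ZT16 and 57.9, 41.6, 47.03 and 59.97 at ZT20 and is shown for these values. Its ZT16 mice were below all mice of both neighbouring times. It fell by 0.82 ± 0.14 log2 and rose by 0.93 ± 0.14 log2 in the steps around ZT16 (adjusted p = 0.00860 and 0.00154). Sfpq, the third gene of this list, did not pass (adjusted p = 0.934). Rbm3 and Cirbp were still rhythmic with any single library left out and on the rescaled libraries.

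Of the heat shock genes, 6 of 24 tested were rhythmic (7 rescaled; 25% against 17.1% of all tested genes), all 6 with peaks in ZT12 to ZT18. Hspb1, the small chaperone HSP27 (chr5:135887919-135889563), had 356, 556, 569.7 and 445 RPKM at ZT4, 754, 761, 716 and 669.8 at ZT12 and 491, 468, 497 and 552 at ZT20. The ZT12 mice were above all mice of both other times (0.64 ± 0.11 log2, peak ZT13.4, adjusted p = 0.00339). From ZT12 to ZT16, 3 members rose, Hspa8, Hsph1 and Stip1 (named after its values were seen), and from ZT16 to ZT20 6 of 24 fell, against 1.06% of all tested genes: the same 3 with Hspb1, Hspa1a and Hspa1b. Hspa8, the constitutive HSC70, is shown for its values, with 258, 225, 229 and 215 RPKM at ZT12, 292, 312, 272 and 302 at ZT16 and 221, 228, 221 and 223 at ZT20. Its ZT16 mice were above all mice of both neighbouring times. It rose by 0.35 ± 0.067 log2 and fell by 0.40 ± 0.067 log2 (adjusted p = 0.0123 and 0.00302). Hsph1, the large HSP110 chaperone, named for its step values, rose by 0.71 ± 0.16 log2 and fell by 0.85 ± 0.16 log2 (adjusted p = 0.0268 and 0.00627). The rise call was lost when any 1 of 5 libraries was left out (ZT12 mice 1 and 4 and ZT16 mice 1, 2 and 3), with adjusted p up to 0.0997. Hspa1a and Hspa1b, near-identical HSP70 copies, fell by 0.44 ± 0.11 and 0.43 ± 0.11 log2 (adjusted p = 0.0298 and 0.0278). Over the 24 tested members the mean deviation was 0.071, -0.15, -0.080, 0.039, 0.18 and -0.058 log2 from ZT0 to ZT20, and at ZT16 every mouse lay above every mouse at ZT4, ZT8, ZT12 and ZT20.

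Among genes of folding and stress in the endoplasmic reticulum, 6 of 25 tested passed (6 rescaled; 24% against 17.1% of all tested genes), with Calr, calreticulin (0.46 ± 0.099 log2, peak ZT21.1, adjusted p = 0.0115), and Pdia6, a disulfide isomerase (0.42 ± 0.092 log2, peak ZT22.2, adjusted p = 0.0128), highest late in the dark. Herpud1, which takes part in degrading misfolded proteins of the reticulum, peaked at ZT12.9 (0.50 ± 0.11 log2, adjusted p = 0.0138). Asns, asparagine synthetase and a target of amino acid stress, had 18.6, 19.6, 18.5 and 20.5 RPKM at ZT0 and 17.3, 13.4, 16.2 and 14.7 RPKM at ZT12, with no overlap (0.38 ± 0.081 log2, peak ZT0.93, adjusted p = 0.0107).

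**Figure D5:**
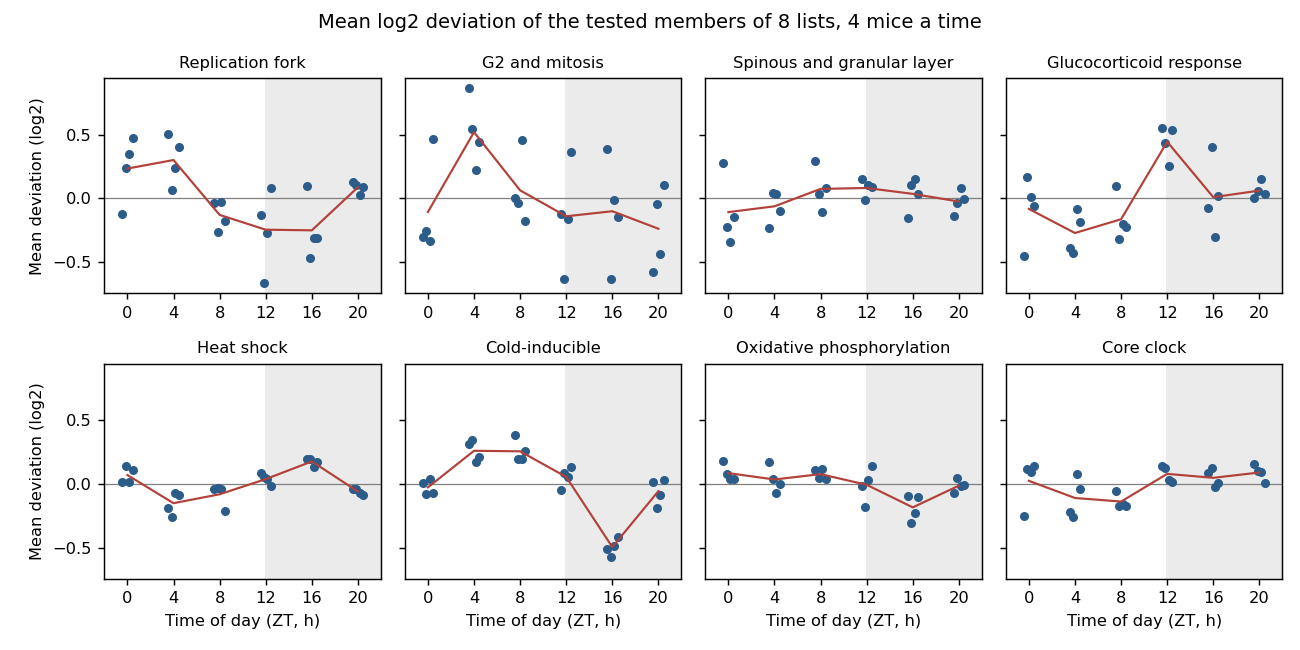
Mean log2 deviation of each list's tested genes from their own averages (vertical axes) in each of the 24 mice, by time of day (horizontal axis, hours after lights on), with the group means. The cold-inducible list is lowest and the heat shock list highest at ZT16, the glucocorticoid list is highest at ZT12, and the replication fork list is high from ZT20 to ZT4 with mice of one time far apart.

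In energy metabolism, 24 of 51 tested genes of oxidative phosphorylation were rhythmic (47.1% against 17.1% of all tested genes), and 14 on the rescaled libraries. Of the 24, 22 peaked in ZT0 to ZT6, with a median difference of 0.28 log2. Ndufs1, a core subunit of complex I, had 14.6, 15.2, 15.9 and 14.3 RPKM at ZT0 and 12.01, 11.3, 12.9 and 13.2 RPKM at ZT12, with no overlap in a change of 0.28 ± 0.039 log2 (adjusted p = 0.000820). Ndufa9, also of complex I, had 0.28 ± 0.045 log2 (peak ZT3.57, adjusted p = 0.00202) and Sdhc, of complex II, 0.37 ± 0.071 log2 (peak ZT4.68, adjusted p = 0.00523). From ZT12 to ZT16, 6 of the 51 fell (against 1.16% of all tested genes) and 0 rose, and from ZT16 to ZT20 all 51 had a higher mean, by a median of 0.15 log2 against 0.0686 over all tested genes, with 1 called rise, Cyc1 of complex III, named after its values were seen. Without ZT16 mouse 2 the oxidative phosphorylation count was 16. Of the tricarboxylic acid cycle 7 of 18 passed (3 rescaled; 38.9%). Mdh1, counted in this list, is the cytosolic malate dehydrogenase and not the mitochondrial enzyme of the cycle. It had 63.4, 59.7, 57.5 and 56.5 RPKM at ZT0 and 46.3, 41.8, 43.3 and 43.4 RPKM at ZT16, with no overlap (0.35 ± 0.058 log2, peak ZT2.78, adjusted p = 0.00200). The cycle count fell to 4 without ZT4 mouse 1.

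Of genes of fasting and fatty acid oxidation, 10 of 24 tested passed (41.7% against 17.1% of all tested genes), and 4 on the rescaled libraries. Enzymes of the oxidation spiral had shallow rhythms with peaks in the light. Hadhb, of the trifunctional protein, had 60.9, 69.3, 67.1 and 60.6 RPKM at ZT4 and 52.7, 55.9, 51.5 and 58.03 RPKM at ZT16, with every ZT4 mouse above every ZT16 mouse (0.32 ± 0.059 log2, peak ZT5.30, adjusted p = 0.00449). Decr1, which handles unsaturated chains, had 0.35 ± 0.066 log2 (peak ZT3.85, adjusted p = 0.00473). The fasting and oxidation count fell to 5 without ZT16 mouse 2. Of cholesterol genes 4 of 24 passed (3 rescaled), a share of 16.7% that was near the 17.1%, among them the regulator Srebf2, with 40.5, 39.7, 38.8 and 42.3 RPKM at ZT4 and 29.4, 29.2, 32.99 and 29.6 RPKM at ZT16 (0.32 ± 0.065 log2, adjusted p = 0.00912), and Tm7sf2, a sterol reductase (0.57 ± 0.13 log2, adjusted p = 0.0198). The ZT4 mice of Srebf2 were all above the ZT16 mice. Acat2 (0.43 ± 0.10 log2, adjusted p = 0.0178) and mevalonate kinase Mvk (0.35 ± 0.090 log2, adjusted p = 0.0280) were the others. Of fatty acid synthesis 2 of 14 passed (14.3%), malic enzyme Me1 (0.56 ± 0.13 log2, peak ZT7.59, adjusted p = 0.0195) and the regulator Srebf1 (0.28 ± 0.068 log2, peak ZT2.81, adjusted p = 0.0208). Mvk was not called when 1 of these was left out: ZT8 mice 2 and 4 and ZT16 mouse 4 (adjusted p up to 0.0543). Srebf2 and Srebf1 no longer passed on the rescaled libraries (adjusted p = 0.0579 and 0.0748).

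Of glycolysis genes, 4 of 21 passed (2 rescaled), or 19.0%, near the 17.1% of all tested genes. Aldoc, an aldolase, had 4.32, 5.68, 4.02 and 3.84 RPKM at ZT4 and 2.59, 2.87, 2.91 and 2.99 RPKM at ZT16 and did not overlap between them (0.68 ± 0.11 log2, peak ZT5.60, adjusted p = 0.00143). The others were the phosphofructokinase Pfkm (0.34 ± 0.085 log2, adjusted p = 0.0267), Pfkfb2, which makes the activator of that enzyme (0.25 ± 0.060 log2, peak ZT16.8, adjusted p = 0.0212), and Tpi1 (0.29 ± 0.080 log2, adjusted p = 0.0407). Pfkm fell by 0.29 ± 0.073 log2 into ZT16 and rose by 0.44 ± 0.073 log2 out of it (adjusted p = 0.0438 and 0.00264). Pfkm was not called when 1 of these was left out: ZT4 mouse 1 and ZT16 mice 2 and 3 (adjusted p up to 0.0613). Tpi1 lost its call without any 1 of 12 libraries (adjusted p up to 0.0916, without ZT16 mouse 2). Pfkm and Tpi1 no longer passed on the rescaled libraries (adjusted p = 0.0683 and 0.0735). The glycolysis count fell to 2 without ZT4 mouse 1 and rose to 8 without ZT12 mouse 1. Antioxidant targets of NRF2 had 5 of 22 called (22.7%), and 5 on the rescaled libraries. Peroxiredoxin Prdx1 had 183, 160.2, 155 and 149.7 RPKM at ZT0 and 131, 116, 120.5 and 135 RPKM at ZT16, without overlap (0.33 ± 0.057 log2, adjusted p = 0.00319). Transketolase Tkt (0.33 ± 0.062 log2, adjusted p = 0.00537), the glutathione synthesis subunit Gclm (0.44 ± 0.094 log2, adjusted p = 0.0121), thioredoxin Txn1 (0.44 ± 0.10 log2, adjusted p = 0.0194) and Me1 completed the 5.

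Protein synthesis and turnover showed small differences. In the proteasome 10 of 37 passed (27.0% against 17.1% of all tested genes), but 2 on the rescaled libraries and 1 without ZT16 mouse 2. Psmb4, a core subunit, had 113, 104, 111 and 102 RPKM at ZT8 and 82.8, 70.1, 77.6 and 81.02 RPKM at ZT16, without overlap (0.34 ± 0.075 log2, adjusted p = 0.0134). Of cytosolic ribosomal proteins 3 of 80 passed as deposited (3.75%) and 15 on the rescaled libraries, where 12.7% of all tested genes passed. Of the 15, 9 peaked in ZT12 to ZT18, a window that held 0 of the 3 called as deposited. The 3 were Rps27l (0.38 ± 0.089 log2, adjusted p = 0.0170), Rps2 (0.19 ± 0.050 log2, adjusted p = 0.0332) and Rplp1 (0.34 ± 0.090 log2, adjusted p = 0.0332). From ZT12 to ZT16, 78 of the 80 had a lower mean, by a median of 0.15 log2 where all tested genes had a median step of -0.0050 log2, and 4 of these falls passed. They included Rplp1 and, named after their values were seen, Rps29 and Rpl41. From ZT16 to ZT20, 79 of 80 had a higher mean, by a median of 0.10 log2 against 0.0686 log2 over all tested genes, and 0 passed. The list also moved from ZT4 to ZT8. There 79 of 80 had a higher mean, by a median of 0.16 log2 against -0.0094 log2 over all tested genes, and 0 passed. Rps2 was not called when 1 of these was left out: ZT8 mice 3 and 4 and ZT20 mouse 1 (adjusted p up to 0.0634). Rplp1 was not called when 1 of these was left out: ZT8 mice 1, 2 and 4, ZT12 mouse 3 and ZT20 mouse 1 (adjusted p up to 0.0614). The ribosomal protein count fell to 1 without ZT8 mouse 4 and rose to 18 without ZT0 mouse 1. The mitochondrial ribosome genes called were Mrpl49, Mrpl3, Mrps28, Mrps26 and Mrps35, those of mitochondrial protein import Samm50, Pmpca, Hspa9, Timm17b and Tomm70a, and the translation factors Eif4h, Pabpc1, Eif6 and Eif4g3. As deposited, mitochondrial ribosome (5 of 76), protein import (5 of 28), ribosome biogenesis (6 of 50) and translation factor genes (4 of 47) were called in 6.58%, 17.9%, 12.0% and 8.51% of members. These shares lay near or under the 17.1% of all tested genes. The mitochondrial ribosome count fell to 2 without ZT4 mouse 1 and rose to 11 without ZT12 mouse 4. The ribosome biogenesis count fell to 3 without ZT12 mouse 2 and rose to 11 without ZT0 mouse 1. The translation factor count fell to 1 without ZT0 mouse 3 and rose to 8 without ZT0 mouse 1. A single left-out library could end the calls of Mrps26, Mrps28, Mrps35, Tomm70a, Pabpc1, Eif6 and Eif4g3. On the rescaled libraries the 4 counts were 3, 2, 2 and 8, where 12.7% of all tested genes were called. Of these 4 lists the translation factors alone lay above that share.

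In each of the last 3 steps the largest called rises and falls above 10 RPKM included genes on and off the lists. From ZT12 to ZT16 Efemp1, an extracellular matrix glycoprotein, rose by 0.58 ± 0.13 log2 (adjusted p = 0.0289) and then fell by 0.86 ± 0.13 log2 (adjusted p = 0.00154). Syne2, which links the nucleus to the cytoskeleton, rose by 0.62 ± 0.10 log2 (adjusted p = 0.00559), and the calcium channel gene Itpr2 by 0.59 ± 0.15 log2 (adjusted p = 0.0499); Hsph1, given above, was the other of the 4. The largest fall was that of Stfa3, a stefin that inhibits cysteine proteases and has near-identical copies, by 2.26 ± 0.54 log2 (adjusted p = 0.0352). Txnip followed, then the microRNA gene Mir703 by 1.08 ± 0.21 log2 (adjusted p = 0.0118) and carbonic anhydrase Car12 by 1.03 ± 0.22 log2 (adjusted p = 0.0197). From ZT16 to ZT20 the small nucleolar RNAs Snord16a, Snord34 and Snora16a rose by 1.197 ± 0.27, 1.19 ± 0.34 and 1.12 ± 0.30 log2 (adjusted p = 0.0176, 0.0477 and 0.0401). They lie inside host genes, whose reads cannot be told apart from theirs with certainty. Aadac, an arylacetamide deacetylase, rose by 1.11 ± 0.29 log2 (adjusted p = 0.0305). The largest falls out of ZT16 were those of Tppp3, Il22ra2 by 0.92 ± 0.22 log2 (adjusted p = 0.0248), Efemp1 and Hsph1. From ZT20 to ZT0 the inhibitory G protein subunit Gnai1 rose by 0.52 ± 0.11 log2 (adjusted p = 0.0259), the kinase Pgk1, of the glycolysis list, by 0.48 ± 0.093 log2 (adjusted p = 0.0172), the mitochondrial factor Higd1a by 0.47 ± 0.066 log2 (adjusted p = 0.00359) and Cav2, a caveolin, by 0.45 ± 0.085 log2 (adjusted p = 0.0167). Lysmd1 fell by 0.72 ± 0.16 log2, the glycine transporter gene Slc6a9 by 0.46 ± 0.10 log2, Rara, the retinoic acid receptor alpha, by 0.35 ± 0.063 log2 and the calcium channel subunit gene Cacnb3 by 0.30 ± 0.067 log2 (adjusted p = 0.0112 for Rara and 0.0394 for each of the others). Leaving out 1 library ended the step call of Efemp1 (any 1 of 4, adjusted p up to 0.0866 without ZT12 mouse 3), Car12 (any 1 of 4, adjusted p up to 0.0764 without ZT16 mouse 3), Snord16a (any 1 of 4, adjusted p up to 0.0539 without ZT16 mouse 3), Snord34 (any 1 of 19, adjusted p up to 0.172 without ZT16 mouse 2), Snora16a (any 1 of 8, adjusted p up to 0.105 without ZT20 mouse 2), Pgk1 (any 1 of 4, adjusted p up to 0.0644 without ZT0 mouse 2), Cav2 (any 1 of 3, adjusted p up to 0.0741 without ZT20 mouse 4) and Rara (any 1 of 2, adjusted p up to 0.0525 without ZT0 mouse 2). Efemp1 lost its rise only. Leaving out 1 library likewise ended the calls of Itpr2 (any 1 of 19, adjusted p up to 0.132), Stfa3 (any 1 of 4, adjusted p up to 0.105), Aadac (any 1 of 6, adjusted p up to 0.110), Il22ra2 (any 1 of 4, adjusted p up to 0.0897), Gnai1 (any 1 of 6, adjusted p up to 0.0960), Lysmd1 (any 1 of 8, adjusted p up to 0.131), Slc6a9 (any 1 of 8, adjusted p up to 0.126) and Cacnb3 (any 1 of 7, adjusted p up to 0.126).

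A 12 h component, which would give 2 peaks a day, was called in 3 genes (0.0249% of those tested), Tppp3, Tspan17 and Vangl2, each at adjusted p = 0.0466, with 1534 genes at an unadjusted p under 0.05. Each of the 3 was lost when any 1 of 18 (Tppp3), 20 (Tspan17) or 19 (Vangl2) of the 24 libraries was left out, with adjusted p up to 0.131 without ZT20 mouse 4. Tppp3 shows the shape in its means: 117, 71.1, 49.1, 117, 176 and 87.3 RPKM from ZT0 to ZT20. With time as a 6-level factor, which assumes no curve, 1618 genes changed (13.5%). Of these 1099 were also rhythmic and 519 were not. That count ran from 1036 without ZT16 mouse 2, and 1074 without ZT16 mouse 3, to 2395 without ZT0 mouse 1.

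Of immediate early genes 1 of 22 passed (4.55% against 17.1% of all tested genes), the zinc finger factor Klf2, with 22.6, 26.4, 34.7 and 28.8 RPKM at ZT4 and 88.9, 83.6, 59.97 and 44.7 RPKM at ZT12, without overlap (0.93 ± 0.25 log2, adjusted p = 0.0351). All 22 of them had a higher mean at ZT12 than at ZT8, by a median of 0.52 log2 against -0.045 log2 over all tested genes, and 0 passed that step. Fos, shown for its values, had 2492, 2722, 1711 and 2025 RPKM at ZT8 and 3036, 3496, 2559 and 1944 RPKM at ZT12, with overlapping mice (step 0.29 ± 0.22 log2, adjusted p = 0.664). Klf2 lost its call without any 1 of 8 libraries (adjusted p up to 0.0751, without ZT4 mouse 1). No chemokine of 12 passed in either scaling by limma; at an unadjusted p under 0.05 there were 2. Of interferon response genes 2 of 13 passed (15.4%), the RNA sensors Ddx58 (0.46 ± 0.097 log2, peak ZT0.84, adjusted p = 0.0104) and Ifih1 (0.31 ± 0.088 log2, peak ZT1.07, adjusted p = 0.0462). Ifih1 lost its call without any 1 of 16 libraries (adjusted p up to 0.0961, without ZT12 mouse 3). Ifih1 no longer passed on the rescaled libraries (adjusted p = 0.204). Of nutrient and insulin signalling genes 3 of 29 passed (6 rescaled; 10.3%), the taurine transporter Slc6a6 (0.79 ± 0.16 log2, peak ZT16.5, adjusted p = 0.00896), the autophagy protein gene Map1lc3b (0.21 ± 0.042 log2, peak ZT14.8, adjusted p = 0.00779) and the mTOR inhibitor Deptor (0.37 ± 0.093 log2, peak ZT11.4, adjusted p = 0.0273). Deptor was not called when 1 of these was left out: ZT0 mice 2 and 3 and ZT12 mouse 2 (adjusted p up to 0.0615). The nutrient and insulin signalling count rose to 5 without ZT0 mouse 1. The chemokine count rose to 1 without ZT12 mouse 4. The interferon response count fell to 1 without ZT0 mouse 1.

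By limma 0 of 9 tested Langerhans and dendritic cell, 0 of 4 melanocyte, 0 of 3 fibroblast, 0 of 2 skeletal muscle and 0 of 2 blood markers were rhythmic, with 2, 0, 0, 1 and 0 at an unadjusted p under 0.05, and 0 of each on the rescaled libraries. The Langerhans and dendritic cell count rose to 1 without ZT4 mouse 4. The skeletal muscle count rose to 1 without ZT0 mouse 1. All 8 endothelial and all 8 adipocyte markers stayed under 1 RPKM and were not tested. Blood markers summed to between 16.5 and 164.9 RPKM in single mice, with a median of 29.3. In the hair follicle and sebaceous gland list 1 of 14 passed (7.14%), the stem cell receptor Lgr6 (0.99 ± 0.20 log2, peak ZT22.7, adjusted p = 0.00886), which rose from ZT16 to ZT20 by 0.77 ± 0.22 log2 (adjusted p = 0.0478). In the hair shaft list 1 of 3 passed, the inner root sheath keratin Krt25 (0.44 ± 0.11 log2, peak ZT18.5, adjusted p = 0.0221). The sum of the keratinocyte markers ran from 18298 to 26101 RPKM, and of its 8 genes Krt10 alone was called. The keratinocyte count fell to 0 without ZT0 mouse 2 and rose to 3 without ZT0 mouse 1. The hair follicle and sebaceous gland count rose to 2 without ZT8 mouse 1.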

How the data were processed

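Gene expression was measured by poly(A) RNA-seq in 24 epidermis libraries, 4 mice at each of 6 times of day. The deposited table of the authors gives 1 log2 value per gene and mouse. Trimmomatic 0.36, HISAT2 2.2.1, SAMtools 1.3.1, featureCounts 1.6.0, edgeR and the mm10 build are named in the submitters' processing notes, without roles or settings. The scale is not given in the sources used here. From the values it behaves as log2 RPKM with a prior count of 2. Low values of a gene share a floor across libraries, and the floors fall with transcript length. Depth per library was estimated from those floors. RPKM in the text is the deposited log2 value raised from the log, prior included, so fold changes of low genes are understated.

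Genes averaging 1 RPKM or more (mean log2 of at least 0) were fitted with limma 3.58.1 in R 4.3.3, with empirical Bayes moderation and a mean-variance trend. The 24 h test was a two-sided F test of cosine and sine terms, the 12 h test added terms of that period, and steps came from time as a 6-level factor. P-values were adjusted by Benjamini-Hochberg over all tested genes, within each step for steps, and called under 0.05. The series' design text calls the 4 samples of a time biological replicates. For the rescaled libraries each library was shifted by its median ratio to the mean of all. The scripts were tested on simulated data. The rhythm statistics the authors deposited were not used.

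Genes named are all core clock genes, the 15 largest called rhythms and the largest called steps (4 each way) above a mean of 10 RPKM, the 5 smallest adjusted p in each 6 h window of peak time, the 6 smallest in the 12 h test, and up to 4 members of each of 44 lists with the smallest adjusted p, plus members needed for counts of 5 or fewer. Predicted genes were passed over, and not every gene the rule gives is printed. Members and lists were chosen with earlier results of these data known, so lists are described by counts and medians. The times set side by side per mouse differ by gene and were mostly near its highest and lowest means. Whether mice of such times overlap is therefore a description and not a test. Left-out libraries were run for the 24 h test of every named gene, for list counts and for the largest steps. Positions are from GENCODE M21 and promoters from RefSeq GRCm38.p6, in which 8929 tested genes were matched.

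Other filters, a pseudocount, no trend, robust moderation, the replicate number as a block, and each library or number left out were also tried.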

Additional observations from a re-analysis of the deposited data

Results flagged for a closer look

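Within the 4 mice of a time, 1 mouse lay far from the other 3 in 19 of 312 groups checked, which covered 47 genes and several sums per library. Chance gives about 1 such group in 20. Some of the 47 genes were added after their values were seen, among them the flagged Fkbp5, Hsph1 and Tppp3. The count is therefore not a fair match to that rate. No cause of these values was tested.

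At ZT0, mouse 1 was high for the lipoxygenase Aloxe3 at 8.20 RPKM (others 4.11 to 4.54) and for hornerin, Hrnr, at 27.35 RPKM (others 14.93 to 16.39), and low for the integrin Itga3 at 41.52 RPKM (others 64.18 to 68.26). At ZT4, mouse 2 was low for the chaperone Hsph1 at 7.62 RPKM (others 8.77 to 8.97) and for the summed T cell markers at 51.41 RPKM (others 101.3 to 106.1). Mouse 3 of that time was high for Nr1d1 at 5.018 RPKM (others 3.503 to 3.617) and low for Samm50, which inserts proteins into the outer mitochondrial membrane, at 40.34 RPKM (others 44.19 to 44.94). In ZT8 mouse 1 the malate dehydrogenase Mdh1 was low at 47.92 RPKM (others 54.4 to 55.07) and the cold-inducible Rbm3 high at 82.39 RPKM (others 71.91 to 73.39).

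In the ZT12 group, mouse 2 was low for Tppp3 at 85.53 RPKM (others 126.8 to 132.8) and mouse 3 high for Arntl at 13.16 RPKM (others 11.38 to 11.65). ZT16 mouse 2 was high for Fkbp5 at 24.36 RPKM (others 3.409 to 3.565) and Glul at 85.19 RPKM (others 48.29 to 52.1), and low for the summed keratinocyte markers at 20390.0 RPKM (others 22250.0 to 22370.0). ZT16 mouse 3 was high for the checkpoint kinase Ttk at 14.66 RPKM (others 10.55 to 10.69) and the sterol regulator Srebf2 at 32.99 RPKM (others 29.19 to 29.56), and mouse 4 for the histone Hist1h2ag at 18.54 RPKM (others 11.74 to 12.51). At ZT20, mouse 3 was low for the proteasome subunit Psmb4 at 84.42 RPKM (others 89.3 to 90.21). ZT20 mouse 1 had an estimated depth of 0.813 of the mean library, against 1.122 to 1.153 for the others.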

How the results depend on the processing

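The 24 h count was 2053 as reported, and 1533 rescaled, 1637 with a mean of at least 4 RPKM, 1636 with no filter on low values (19040 genes), 2076 with a pseudocount of 1, 2048 without the trend and 1926 with robust moderation. In no setting did a named gene with a called rhythm move its peak by more than 6 h. None of the largest steps changed sign. Counts, windows and the 12 h test were not judged for direction. With 1 library left out, the 24 h count ran from 1433 to 2761, the time factor count from 1036 to 2395, and the 12 h count from 0 to 9. The shares peaking in the 4 windows of 6 h from ZT0 ran from 46.79 to 63.92%, 9.521 to 18.44%, 9.058 to 11.9% and 14.9 to 25.5%. Steps then had these rises and falls: 0 to 1 and 0 to 3 (ZT4 to ZT8), 0 to 12 and 0 to 12 (ZT8 to ZT12), 15 to 130 and 40 to 270 (ZT12 to ZT16), 159 to 755 and 33 to 177 (ZT16 to ZT20), and 23 to 90 and 3 to 51 (ZT20 to ZT0). Leaving out all 6 libraries of 1 replicate number gave 207 (number 2) to 1809 (number 1) rhythmic genes, 161 to 1482 by time factor, and 0 to 1 at 12 h. The windows became 46.55 to 73.86%, 5.276 to 16.97%, 9.813 to 15.94% and 7.729 to 23.77%. The steps became 0 to 1 rises (ZT8 to ZT12), 2 to 62 and 2 to 137 (ZT12 to ZT16), 43 to 558 and 8 to 134 (ZT16 to ZT20), and 0 to 37 and 0 to 14 (ZT20 to ZT0), with fewer samples. Rescaling gave 268 rises and 205 falls from ZT16 to ZT20, 45 rises from ZT20 to ZT0, 1 gene at 12 h, and windows of 35.36, 23.81, 26.55 and 14.29%. The stricter filter gave 13 falls from ZT20 to ZT0 and 16.19 and 17.35% in ZT6 to ZT12 and ZT18 to ZT24. No filter gave 1 fall from ZT8 to ZT12, 44 rises from ZT12 to ZT16, 82 falls from ZT16 to ZT20, 30 rises and 4 falls from ZT20 to ZT0, 0 genes at 12 h and 16.81% in ZT18 to ZT24. Robust moderation gave 42 rises and 11 falls from ZT20 to ZT0 and 1 gene at 12 h. Without genes at the floor in 12 or more libraries, a setting chosen after seeing the data, these were 40, 10 and 1. The cause of these moves was not tested. Rhythms of at least 1.5-fold numbered 401 as reported, 229 under the stricter filter and 238 with the pseudocount. Of 228 named genes, 198 kept their side of the 24 h threshold under rescaling.

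The replicate numbers did not pair the samples: deviations from the group means correlated at a mean r between -0.024 and 0.014 within a number, and 6 of 24 libraries correlated best with their own number. With the replicate number as a block, 1804 genes were rhythmic, 0 rose from ZT8 to ZT12, 42 rose and 13 fell from ZT20 to ZT0, 0 passed at 12 h and 12.53% peaked in ZT6 to ZT12. Depth limits low genes: 462 tested genes lay at the floor in 12 or more libraries, and 0 of them passed the 24 h test. Of the 462, 296 lay at the floor in all 24 libraries and so could not pass.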
